A study of Mus musculus with 16 samples.

Results

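Polycomb repressive complex 1 (PRC1) is an E3 ligase that places ubiquitin on a lysine near the end of histone H2A (H2AK119ub1). Its catalytic core is a pair of RING finger proteins, either RING1 or RNF2 (RING1B) bound to a single PCGF protein, and the PCGF protein decides which further subunits join. PRC2, another complex, methylates a lysine in the tail of histone H3 (H3K27me3), and promoters that carry both marks are the classical Polycomb targets of embryonic stem cells, among them many regulators of development. The genes that encode PRC1 can carry these marks themselves, and whether they do so here was asked for the 10 genes of its core: the PCGF genes Pcgf1, Pcgf2 (Mel18), Bmi1 (Pcgf4), Pcgf3, Pcgf5 and Pcgf6, the catalytic Ring1 and Rnf2, and Rybp and Yaf2, whose related products take the place of CBX proteins in noncanonical PRC1. They were taken by name from the 22232 protein-coding genes of the annotation, and all 10 were found.

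Mouse cells were profiled by ChIP-seq in 16 libraries, each the single library of its group, and 10 of these gave the peak lists used. The cells were 46C embryonic stem (ES) cells, which carry GFP in the Sox1 gene as a reporter of neural fate, and neural precursor cells (NPC), obtained from them by day 6 of differentiation in suspension. H2AK119ub1 and H3K27me3 were profiled in ES and NPC of wild type and of PCGF5-depleted cells (8 lists). The labels of the depleted samples read shPCGF5, while the methods cover TALEN knockout cells as well as clonal short hairpin RNA lines, so the route of depletion is uncertain here. Flag-PCGF5 was profiled in ES and NPC (2 lists) from cells in which a 3× Flag tag had been knocked in at Pcgf5, labelled wild type. The other 6 libraries were inputs and were not used here. Because every group was 1 library, no difference below has a replicate check or a test, and read depth is unknown. The lists held 3845 to 14759 peaks for the histone marks, 653 for Flag-PCGF5 in ES and 12013 in NPC. A peak list does not measure RNA, so neither the loss of Pcgf5 nor cell identity could be checked by expression. Among marker genes, the pluripotency genes Pou5f1 and Nanog had no promoter peak in any list, Klf4 had H3K27me3 in NPC alone (2156 bp in wild type, 925 bp in depleted), and Esrrb had it in all 4 lists (1340 to 2686 bp). Of the neural genes, Pax6 carried both marks in all 8 histone lists. Its H3K27me3 covered 18187 bp in wild type and 13680 bp in depleted NPC, whereas Nes (1252 and 2614 bp) and Pou3f2 (1953 and 3308 bp) were wider in depleted NPC. In wild type ES it covered 4348 bp at Pax6, 0 bp at Nes and 901 bp at Pou3f2, so each was wider in wild type NPC. The study reports a reduction during differentiation at the Nestin and Pou3f2 promoters by ChIP-qPCR, which measures signal over input and not peak width. The wild type NPC H3K27me3 list was also wider as a whole than that of wild type ES (9.67 against 4.31 Mb), so these widths cannot be set against it. H2AK119ub1 covered 155 bp at Nes in wild type ES, 0 bp in wild type NPC and 354 bp in depleted NPC. At Pou3f2 these were 0, 0 and 751 bp, and at Pax6 4747, 10492 and 2308 bp. Sox1 was absent from the annotation and was not checked.

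Promoter peaks were those centred no more than 2500 bp from any annotated protein-coding start of the gene, and body peaks those centred between the ends of the gene. The summed width of such peaks is given in bp. Fold is the enrichment over local background that the peak caller assigned to a peak within its own library. Coordinates are on mm9.

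Of the 10 genes, 6 had a promoter peak in at least 1 of the 10 lists, and these were Pcgf1, Pcgf2, Bmi1, Pcgf5, Ring1 and Yaf2. Pcgf3, Pcgf6, Rnf2 and Rybp had none, and 66.2% of all protein-coding genes likewise had none. In the 8 histone lists a promoter peak was found for 4 genes, Pcgf1, Bmi1, Pcgf5 and Yaf2, against 24.6% of all genes. Bmi1 was the single member with H2AK119ub1 at its promoter and the single member with both marks there, in wild type NPC, where 4.73% of all genes had both. Pcgf2 and Ring1 had Flag-PCGF5 in NPC and neither mark, a combination that 10.2% of all genes shared. With 10 genes and 1 library in each group these counts are a description.

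**Figure D1:**
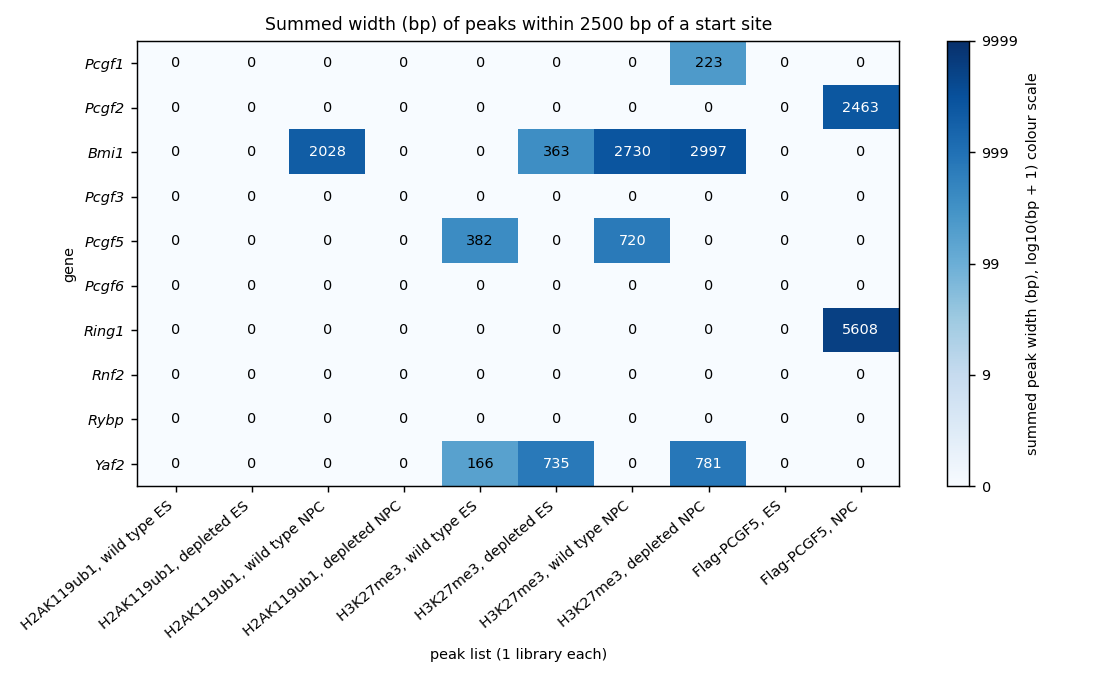
Summed width in bp of peaks centred within 2500 bp of a start, for each gene (rows) and each peak list of 1 library (columns), with the colour on a log10(bp + 1) scale. Bmi1 has 2028 to 2997 bp in 3 NPC lists, and the rows of Pcgf3, Pcgf6, Rnf2 and Rybp are 0 throughout.

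The sequences under the peaks that carry these results are shown next, read from the mm9 assembly on the strand of the gene, 5′ to 3′, with every CG dinucleotide in capitals, since Polycomb marks of ES cells are known to gather at CpG-rich promoters. Each is the 300 bases around the centre of the peak, or the whole peak where it is shorter.
Bmi1, intronic centre of the H3K27me3 peak over the second start in wild type NPC, chr2:18599659-18599958, + strand: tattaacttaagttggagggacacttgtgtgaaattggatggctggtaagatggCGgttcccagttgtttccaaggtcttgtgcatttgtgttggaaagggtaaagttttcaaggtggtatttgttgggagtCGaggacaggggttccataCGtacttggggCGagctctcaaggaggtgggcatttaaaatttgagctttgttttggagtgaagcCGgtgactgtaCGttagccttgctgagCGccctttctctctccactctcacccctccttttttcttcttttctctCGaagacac
Bmi1, intergenic peak of Flag-PCGF5 in NPC beyond the 3′ end, chr2:18610798-18611097, + strand: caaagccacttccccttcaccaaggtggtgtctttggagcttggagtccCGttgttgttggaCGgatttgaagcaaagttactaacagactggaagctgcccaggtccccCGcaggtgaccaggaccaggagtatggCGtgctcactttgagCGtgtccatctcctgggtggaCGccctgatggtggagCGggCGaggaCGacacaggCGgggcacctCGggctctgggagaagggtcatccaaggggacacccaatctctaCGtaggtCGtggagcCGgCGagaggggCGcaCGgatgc
Pcgf5, intronic peak of H3K27me3 in wild type NPC next to the downstream start, chr19:36485470-36485769, + strand: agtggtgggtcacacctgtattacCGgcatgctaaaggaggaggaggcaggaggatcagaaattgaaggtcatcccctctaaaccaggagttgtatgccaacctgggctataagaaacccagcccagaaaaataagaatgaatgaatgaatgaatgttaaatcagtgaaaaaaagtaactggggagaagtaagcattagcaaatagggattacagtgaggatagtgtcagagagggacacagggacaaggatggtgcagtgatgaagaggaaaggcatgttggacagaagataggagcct
Pcgf5, upstream peak of H3K27me3 in wild type ES, chr19:36452338-36452564, + strand: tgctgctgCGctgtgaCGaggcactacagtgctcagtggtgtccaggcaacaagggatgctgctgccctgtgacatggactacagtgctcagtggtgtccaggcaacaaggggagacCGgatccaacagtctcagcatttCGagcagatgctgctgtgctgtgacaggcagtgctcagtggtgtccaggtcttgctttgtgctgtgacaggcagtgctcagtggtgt
Yaf2, upstream peak of H3K27me3 in depleted NPC, chr15:93168759-93169058, − strand: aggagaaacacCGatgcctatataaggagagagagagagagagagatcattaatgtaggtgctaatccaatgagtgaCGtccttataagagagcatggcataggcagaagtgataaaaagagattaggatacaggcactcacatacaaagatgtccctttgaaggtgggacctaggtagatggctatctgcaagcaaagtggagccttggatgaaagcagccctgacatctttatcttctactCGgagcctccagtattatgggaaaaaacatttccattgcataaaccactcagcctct
Pcgf1, upstream peak of H3K27me3 in depleted NPC, chr6:83026009-83026231, + strand: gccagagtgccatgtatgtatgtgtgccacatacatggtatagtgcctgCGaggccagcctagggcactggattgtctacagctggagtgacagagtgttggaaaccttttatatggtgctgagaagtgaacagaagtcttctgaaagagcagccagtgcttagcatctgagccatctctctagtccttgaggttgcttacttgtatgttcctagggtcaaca
Pcgf2, peak of Flag-PCGF5 in NPC, chr11:97559961-97560260, − strand: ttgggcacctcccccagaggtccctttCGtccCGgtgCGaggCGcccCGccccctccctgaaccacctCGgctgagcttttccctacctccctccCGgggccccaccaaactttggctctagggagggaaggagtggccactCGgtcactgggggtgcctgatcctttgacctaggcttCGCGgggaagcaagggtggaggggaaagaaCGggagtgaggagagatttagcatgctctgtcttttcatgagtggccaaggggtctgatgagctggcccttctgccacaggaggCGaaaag
Ring1, peak of Flag-PCGF5 in NPC, chr17:34163870-34164169, − strand: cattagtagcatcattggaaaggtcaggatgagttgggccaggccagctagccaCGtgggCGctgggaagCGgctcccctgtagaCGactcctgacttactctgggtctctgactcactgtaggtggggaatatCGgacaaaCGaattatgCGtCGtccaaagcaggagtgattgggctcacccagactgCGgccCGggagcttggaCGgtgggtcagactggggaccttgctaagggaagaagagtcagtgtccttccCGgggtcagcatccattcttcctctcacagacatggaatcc

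These stretches differed widely in CpG content. The Bmi1 intergenic stretch held 17 CpG (observed over expected 0.621, GC 61.0%) and the Bmi1 intronic stretch 8 (0.501, GC 47.0%). Pcgf2 and Ring1 had 12 CpG each (0.412 and 0.504). By contrast the Pcgf5 intronic stretch and the Pcgf1 stretch each held 1 CpG (0.0758 and 0.0782), the Yaf2 stretch 3 (0.213) and the Pcgf5 upstream stretch 4 (0.221). The median CpG observed over expected of all peaks was 0.415 in the wild type ES and 0.415 in the wild type NPC H3K27me3 list. It was 0.336 in the depleted NPC H3K27me3 list and 0.203 in the NPC Flag-PCGF5 list. These medians are over whole peaks, so they are only a rough comparison for stretches cut to 300 bases. Repeated words were seen in 3 of the 8 stretches. A word of 12 bases occurred up to 4 times in the Pcgf5 upstream stretch, up to 3 times in the Pcgf5 intronic one and up to 5 times in that of Yaf2, a run of ga dinucleotides, and in the other 5 each such word occurred 1 time.

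The first question was whether the PCGF genes carry PRC1's own mark. BMI1 is, like PCGF2, a PCGF protein of canonical PRC1 and is known for holding the Cdkn2a locus silent in stem cells, neural stem cells included. Bmi1 (chr2:18598645-18608256, + strand, 9.61 kb, with 6 annotated starts) had no H2AK119ub1 peak at its promoter in wild type ES, in depleted ES or in depleted NPC. In wild type NPC it had 7 peaks that covered 2028 bp over a span of 8396 bp, with folds of 3.10 to 5.81. The widest of these, 470 bp at chr2:18601198-18601667, lay in an intron, and the highest fold belonged to a peak of 462 bp at chr2:18601935-18602396 that overlapped an exon around the downstream starts. The promoter width of Bmi1 in this list stood at the 86.9th percentile of the 1108 marked genes, whose median was 387 bp. With its 6 starts Bmi1 was searched over 9.09 kb, against 5 kb for a gene with 1 start, and with the outermost start alone its width was 939 bp. Among the 10 genes, H2AK119ub1 at a promoter was thus found for 1 in wild type NPC and for 0 in the other 3 lists. Of all genes, 6.69% had it in wild type ES, 5.96% in depleted ES, 4.98% in wild type NPC and 4.17% in depleted NPC, and 2.46% had it in wild type NPC and not in depleted NPC, as Bmi1 did. The depleted NPC list was the shorter (3845 against 5754 peaks). With the wild type NPC list cut to its 3845 highest-scoring peaks, 4 Bmi1 peaks (1370 bp) were left.

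H3K27me3 at the Bmi1 promoter was found in both NPC lists. In wild type ES there was no peak and in depleted ES there was 1 (363 bp, fold 4.29). In wild type NPC there were 4 peaks (2730 bp, folds of 3.81 to 10.5) and in depleted NPC 5 (2997 bp, folds of 3.34 to 5.84). Both NPC lists were thus high, depleted ES was low and wild type ES was at 0. The NPC lists were wider at marked genes in general. Their median promoter widths were 1303 bp in wild type and 940 bp in depleted NPC, against 556.5 and 521 bp in ES. The highest fold, 10.5, came from a peak of 936 bp at chr2:18599341-18600276 over the second annotated start and the following intron of wild type NPC (98.4th percentile by fold in its list), and the depleted NPC peak there was 589 bp with a fold of 5.04 (78.8th percentile). These folds were each computed within 1 library and are set side by side only. The widths stood at the 80.5th and 89.3rd percentiles of the marked genes of their lists, with Bmi1 searched over 9.09 kb through its 6 starts. With the outermost start alone the wild type NPC width was 1886 bp. The depleted NPC peaks left were 737, 589 and 373 bp wide, together narrower than in wild type, so the order of the genotypes depended on the starts used. The same positions were marked in both genotypes: 1929 bp were shared, which is 70.7% of the wild type and 64.4% of the depleted width. The depleted ES peak lay wholly inside the wild type NPC peaks. H3K27me3 in both NPC lists was found at 11.9% of all genes, in wild type NPC and not in wild type ES at 6.08%, and in depleted ES and not in wild type ES at 3.43%.

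In wild type NPC the 2 marks lay together at Bmi1. Of the 7 H2AK119ub1 peaks, 5 overlapped an H3K27me3 peak, and all 4 H3K27me3 peaks were overlapped. The shared 1279 bp were 63.1% of the H2AK119ub1 width and 46.8% of the H3K27me3 width. In depleted NPC, H3K27me3 covered 55.9% of the bases that carried H2AK119ub1 in wild type NPC, while no H2AK119ub1 peak was listed at the promoter. The most upstream peaks of Bmi1 fell within the 3′ part of Commd3, which lies head to tail with it and ends before the first Bmi1 start. The H2AK119ub1 peak farthest upstream was centred 2499 bp from the start, just inside, and had a −log10 q of 1.10, whereas the nearest peak outside the window in the other H2AK119ub1 lists lay 7923 to 8885 bp from a start.

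Those outlying peaks marked a further site. Between 2000 and 4000 bp past the 3′ end of Bmi1, an interval chosen after the values were seen, a peak was centred in all 8 histone lists and in Flag-PCGF5 of NPC. H2AK119ub1 covered 186 bp in wild type ES, 298 bp in depleted ES, 222 bp in wild type NPC and 455 bp in depleted NPC. H3K27me3 covered 1858 bp in wild type ES, 933 bp in depleted ES, 2111 bp in wild type NPC and 2008 bp in depleted NPC. The Flag-PCGF5 peak of NPC was 1051 bp wide (chr2:18610422-18611472, fold 2.82, 84.4th percentile by p-value in its list), and the ES Flag-PCGF5 list, the shortest, had none. In this interval the depleted ES list was the lowest for H3K27me3, and the H2AK119ub1 widths were small in all 4 lists. Over the whole 10 kb past the 3′ end, wild type NPC had 7 H2AK119ub1 peaks (2745 bp, folds up to 6.80) and 7 H3K27me3 peaks (4816 bp). Both sums were wider than at the promoter (2028 and 2730 bp). Depleted NPC had 455 bp and 3159 bp there. The ES lists had 186 to 491 bp of H2AK119ub1 and 1526 to 2052 bp of H3K27me3. The union of the peaks centred between 2000 and 4000 bp ran from 18609939 to 18612366, and the annotation places no protein-coding gene there. The next start, that of Gm13334, lay 4712 bp from the centre of the Flag-PCGF5 peak. Counted in the same interval behind each protein-coding gene, 0.0990% of genes had a peak in all 8 histone lists and 0.00900% in at least 9 of the 10 lists, which besides Bmi1 was Foxa2. Since the interval was set on Bmi1, these shares only describe it. This was the single place within 10 kb of any of the 10 genes where Flag-PCGF5, H2AK119ub1 and H3K27me3 were all listed.

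**Figure D2:**
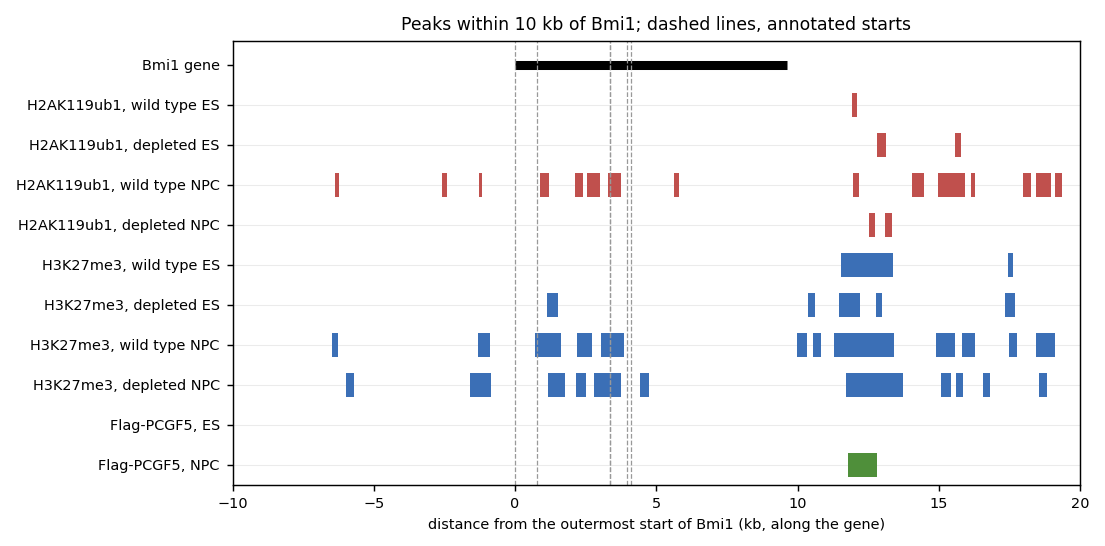
Peaks of the 10 lists (rows) along Bmi1, with the distance from its outermost start in kb on the horizontal axis, bars drawn to scale, the gene as a black bar and annotated starts as dashed lines. The promoter region is marked in wild type NPC by both marks and in depleted NPC by H3K27me3, while the site beyond the 3′ end has a peak in 9 of the 10 lists. In wild type NPC further peaks of both marks lie past that site.

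PCGF5 is the PCGF protein depleted in these cells, and it joins RING1 or RNF2 in a noncanonical PRC1. Pcgf5 (chr19:36453557-36530682, + strand, 77.1 kb) has 2 annotated starts, at 36453557 and 36484238. H3K27me3 at its promoters was found in both wild type lists and in neither depleted list. In wild type ES there were 2 peaks (382 bp), one of 227 bp upstream of the outer start (fold 4.56) and one of 155 bp centred 2287 bp past the inner start (fold 3.36). In wild type NPC there were 2 peaks (720 bp) on either side of the inner start, of 213 bp (fold 4.77) and 507 bp (fold 6.23), both intronic to the longer transcript. No base was shared between the ES and the NPC peaks. The widths were at the 34.4th and 30.6th percentiles of the marked genes. H3K27me3 was listed at 3.90% of all promoters in wild type ES and not in depleted ES, and at 3.74% in wild type NPC and not in depleted NPC. No H2AK119ub1 and no Flag-PCGF5 peak lay at either start in any list.

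The widest marking of Pcgf5 was at its other end. Within 2000 bp of the 3′ end, wild type NPC had 3 H3K27me3 peaks (1799 bp over a span of 2269 bp, folds of 4.00 to 7.38) and 4 H2AK119ub1 peaks (943 bp over 1998 bp, folds of 4.26 to 6.06). The other 8 lists had none. The region took in the end of the last intron, the last exon with its 3′ untranslated part and the first bases past the gene. The 2 marks shared 789 bp, which was 83.7% of the H2AK119ub1 width and 43.9% of the H3K27me3 width. The strongest peak, 919 bp of H3K27me3 at chr19:36529032-36529950, had a fold of 7.38 (89.6th percentile). No start of another protein-coding gene lay nearer to it than that of Hectd2, 99638 bp away. The region was singled out after its values were seen. Both lists of depleted NPC were empty over the whole gene, as were those of depleted ES, and whether the depletion changed the locus itself was not tested.

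**Figure D3:**
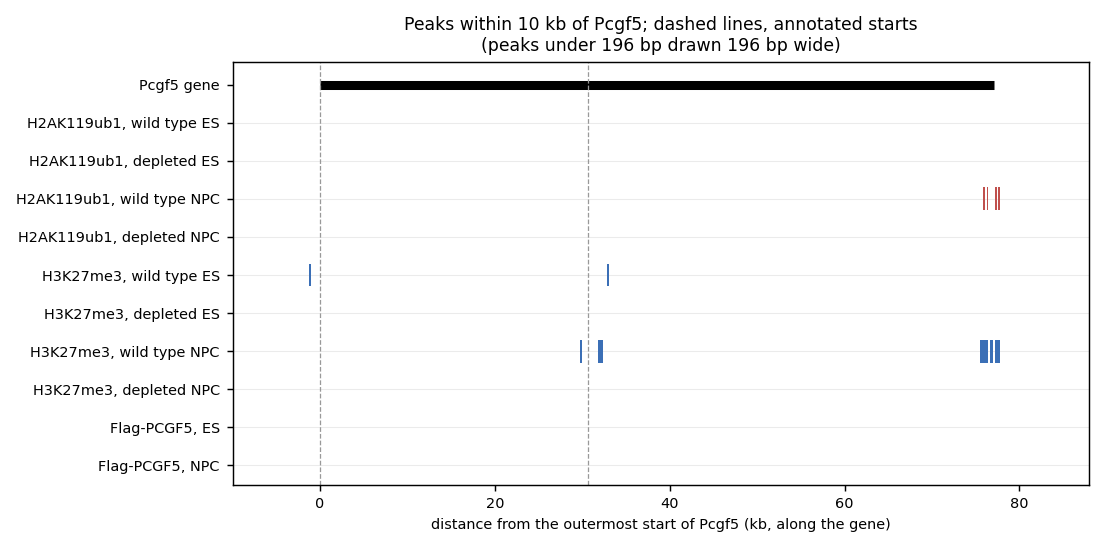
Peaks of the 10 lists (rows) along Pcgf5, by distance from its outermost start in kb, with the gene as a black bar and its 2 annotated starts as dashed lines. Peaks are listed in wild type alone, and both marks coincide at the 3′ end in wild type NPC.

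Over the gene bodies, peaks were found for Bmi1, Pcgf5 and Pcgf2. H2AK119ub1 was found over 2 of the 10 genes in wild type NPC, Bmi1 (1692 bp) and Pcgf5 (431 bp), and over 0 in wild type ES, depleted ES and depleted NPC. Of all genes, 5.22% had it in wild type NPC, 9.83% in wild type ES, 8.76% in depleted ES and 5.24% in depleted NPC. H3K27me3 was found over Pcgf5 in wild type ES (155 bp, 15.5% of all genes), over Bmi1 in depleted ES (363 bp, 14.3%), over Bmi1 and Pcgf5 in wild type NPC (2306 and 1971 bp, 15.4%) and over Bmi1 in depleted NPC (2260 bp, 15.3%). Flag-PCGF5 lay over Pcgf2 in NPC (2463 bp, 18.7%) and over no member in ES (1.28%). Apart from the 3′ end of Pcgf5, every peak counted over a body also lay in a promoter window.

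YAF2 and RYBP are related proteins that bind the RING subunit of noncanonical PRC1, and their genes differed. Yaf2 (chr15:93114709-93167366, − strand, 52.7 kb, 1 start) had H3K27me3 upstream of its start in 3 of the 4 lists. There was 1 peak in wild type ES (166 bp, fold 4.03, centred 711 bp upstream), 2 in depleted ES (735 bp, folds of 4.29 and 5.07), none in wild type NPC and 1 in depleted NPC (781 bp, fold 5.04, centred 1669 bp upstream). Both depleted lists were thus above both wild type lists, but this order depended on the setting. With a window of 1000 bp only the wild type ES peak was left. In the higher-scoring 50% of each list only the depleted NPC peak was left. The depleted ES and depleted NPC peaks shared 252 bp, and neither shared a base with the wild type ES peak. H2AK119ub1 and Flag-PCGF5 were not listed at Yaf2. Rybp (chr6:100178560-100237435, − strand) had no peak of any kind at the promoter or over the body, and its nearest histone peaks lay 108685 to 180419 bp from the start. The nearest Flag-PCGF5 peak of NPC lay 14020 bp upstream (783 bp, fold 2.09).

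Pcgf1, whose product directs the noncanonical PRC1 that contains KDM2B and BCOR, had a single peak. It was H3K27me3 in depleted NPC, 223 bp wide with a fold of 4.08, and centred 2260 bp upstream of the start, near the edge of the window. Its width was at the 8.97th percentile of the marked genes of that list. H3K27me3 in depleted NPC and not in wild type NPC was listed at 3.54% of all genes, Pcgf1 and Yaf2 among them. Pcgf1 (chr6:83028380-83030841, + strand, 2.46 kb) sits between the homeobox genes Tlx2 and Lbx2, both of which were marked. On the Tlx2 side, H3K27me3 within 10 kb covered 1626 bp in wild type ES, 345 bp in depleted ES, 4437 bp in wild type NPC and 4773 bp in depleted NPC. H2AK119ub1 there covered 1111 bp in wild type ES, none in depleted ES, 2698 bp in wild type NPC and 2108 bp in depleted NPC. On the Lbx2 side H3K27me3 covered 270 bp in wild type ES, 231 bp in depleted ES, 4487 bp in wild type NPC and 3676 bp in depleted NPC. H2AK119ub1 on that side was listed in wild type NPC alone (426 bp). The body of Pcgf1, between these marked neighbours, had no peak in any list.

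PCGF2, the close relative of BMI1 in canonical PRC1, and RING1, a catalytic subunit, are encoded by the members with Flag-PCGF5 in NPC. At Pcgf2 (chr11:97550137-97561811, − strand, 11.7 kb, 4 starts) the peak was 2463 bp wide, at chr11:97558879-97561341, with a fold of 2.12. It lay over the starts at 97560955 and 97560962 and stopped short of the outermost start at 97561811. Its p-value was at the 61.5th percentile of the list and its width at the 95.7th of the marked genes. At Ring1 (chr17:34157737-34161625, − strand, 3.89 kb, 1 start) the peak was 5608 bp wide, at chr17:34161216-34166823, with a fold of 1.96, its p-value at the 6th percentile of the list and its width at the 99.8th of the marked genes. That peak was centred 2394 bp upstream of Ring1 and only 982 bp from the start of H2-Ke6, so it was counted to both genes. Of all genes, 13.7% had Flag-PCGF5 at the promoter in NPC and 0.787% in ES, where the 10 genes had none. The histone marks were far away: the nearest histone peak in any list lay 30.6 kb from a Pcgf2 start and 15.7 kb from that of Ring1.

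The remaining 3 genes of the complex were without peaks at the promoter and over the body in all 10 lists. PCGF3 is the nearest relative of PCGF5, and Pcgf3 (chr5:108890251-108935995, + strand) had its nearest histone peaks 87.8 to 93.2 kb from the start, and a Flag-PCGF5 peak of NPC 20028 bp upstream (416 bp, fold 2.19). PCGF6 works in a complex with MGA, MAX and E2F6, and Pcgf6 (chr19:47108109-47125380, − strand) had its nearest histone peak 34886 to 36675 bp downstream of a start in 7 of the 8 lists, past the 3′ end, and 203 kb away in wild type ES for H2AK119ub1. RNF2 is the main catalytic subunit of ES cells, and Rnf2 (chr1:153316536-153347953, − strand) had its nearest histone peak between 69.7 and 2170 kb away.

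**Figure D4:**
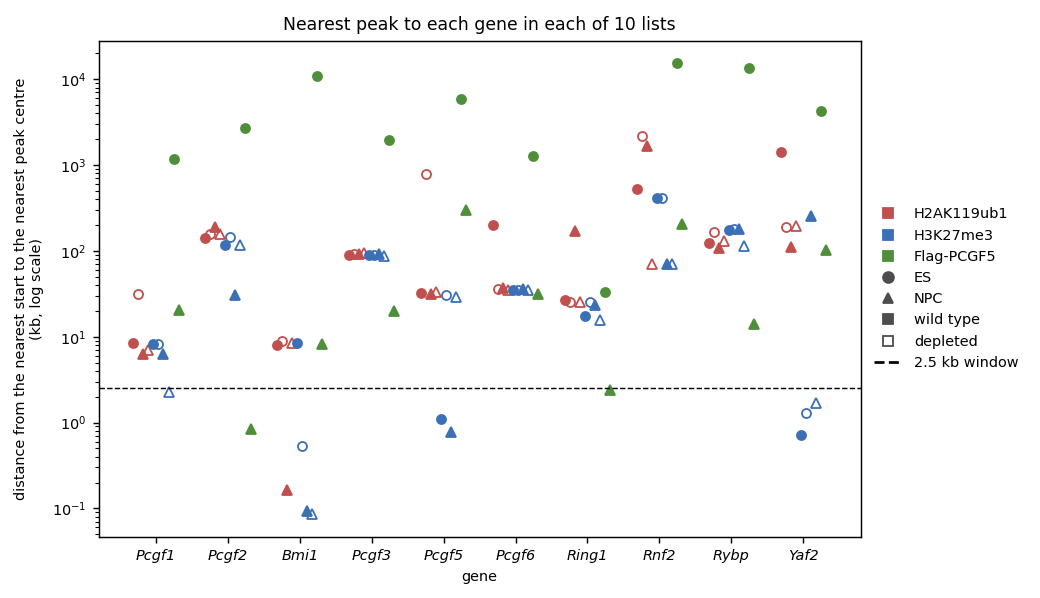
Distance in kb, on a log scale, from the nearest start of each gene to the centre of the nearest peak in each of 10 lists, with colour for the mark or factor, circles for ES, triangles for NPC, and open symbols for depleted cells. Symbols under the dashed line at 2.5 kb are promoter peaks, and Pcgf3, Pcgf6, Rnf2 and Rybp have none, with histone peaks at 34.9 kb or more.

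CpG content did not separate the marked from the unmarked members. In the 300 bases from 250 before to 50 after the outermost start, the median CpG observed over expected was 0.914 for the 10 genes and 0.535 for all genes, while genes with a histone peak at the promoter had 0.622 and genes without had 0.479. Rybp (1.12, GC 83.3%), Rnf2 (0.975) and Pcgf6 (0.918) were unmarked at such values, and Yaf2 (1.17) was marked. Pcgf5 was the lowest of the 10, at 0.286 with 5 CpG, the 31.5th percentile of all genes. In the 5 kb around the start Bmi1 was the highest of the 10, at 0.874, the 99.9th percentile of all genes, while Pcgf5 (0.313) and Pcgf3 (0.291) were below the median of all genes (0.34). The 250 bases upstream of 4 starts are shown to set the marked Bmi1, Yaf2 and Pcgf5 beside the unmarked Rybp, with the letters CACGTG (an E-box, bound by MAX partners) in capitals where found.
Bmi1, chr2:18598395-18598644, + strand: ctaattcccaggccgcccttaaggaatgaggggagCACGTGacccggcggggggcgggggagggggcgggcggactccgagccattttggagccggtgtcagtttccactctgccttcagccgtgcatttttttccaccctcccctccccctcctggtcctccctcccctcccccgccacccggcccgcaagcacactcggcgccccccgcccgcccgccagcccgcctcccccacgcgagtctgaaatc
Yaf2, chr15:93167367-93167616, − strand: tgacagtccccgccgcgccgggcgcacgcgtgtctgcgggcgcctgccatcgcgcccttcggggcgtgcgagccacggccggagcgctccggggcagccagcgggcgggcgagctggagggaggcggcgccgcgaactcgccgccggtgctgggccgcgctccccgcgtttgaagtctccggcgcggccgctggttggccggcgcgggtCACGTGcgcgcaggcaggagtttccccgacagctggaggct
Pcgf5, chr19:36453307-36453556, + strand: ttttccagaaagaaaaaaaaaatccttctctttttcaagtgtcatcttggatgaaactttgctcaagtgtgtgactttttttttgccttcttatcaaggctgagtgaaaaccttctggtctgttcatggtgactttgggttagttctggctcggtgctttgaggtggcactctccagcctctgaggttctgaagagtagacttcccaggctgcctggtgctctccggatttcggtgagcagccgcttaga
Rybp, chr6:100237436-100237685, − strand: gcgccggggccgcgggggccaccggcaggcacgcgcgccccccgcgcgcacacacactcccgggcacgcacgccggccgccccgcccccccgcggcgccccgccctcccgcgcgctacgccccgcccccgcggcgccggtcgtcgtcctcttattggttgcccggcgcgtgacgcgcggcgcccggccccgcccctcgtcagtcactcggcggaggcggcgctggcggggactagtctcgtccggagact
In the 300-base windows and on either strand, CACGTG was found for 2 of the 10 genes, Bmi1 and Yaf2, and for 7.77% of all genes. GCGGGAA, the core bound by E2F factors, was found for Rnf2 alone and for 5.59% of all genes. CGCG was found for 9 of the 10, all but Pcgf5, and for 46.7% of all genes. These are matches of letters and do not show binding.

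The width of H3K27me3 at the promoters, summed over the members, had no direction that held across settings. In ES it was 1098 bp in depleted against 548 bp in wild type, a log2 ratio of 1.00, and over all genes the log2 ratio was -0.18. In NPC it was 4001 against 3450 bp, a log2 ratio of 0.21, and over all genes -0.36. In both stages the sum rested on 3 or 4 genes. In ES, Pcgf5 moved from 382 to 0 bp, Yaf2 from 166 to 735 bp and Bmi1 from 0 to 363 bp. In NPC, with a window of 1000 bp in place of 2500 bp, the ratio turned to -0.42 (1887 against 2519 bp), and in ES, in the higher-scoring 50% of each list, the sum was 0 bp in depleted against 227 bp in wild type. For H2AK119ub1 no ratio could be formed, since the sum was 0 in both ES lists and 0 in depleted NPC, and over all genes the log2 ratio was -0.14 in ES and -0.92 in NPC. Counted by genes, H3K27me3 was found at 2 of 10 promoters in wild type ES (Pcgf5 and Yaf2, 13.4% of all genes), 2 in depleted ES (Bmi1 and Yaf2, 12.9%), 2 in wild type NPC (Bmi1 and Pcgf5, 15.7%) and 3 in depleted NPC (Pcgf1, Bmi1 and Yaf2, 15.4%).

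Genes with the same presence in all 10 lists were few for 3 members. The pattern of Bmi1 was shared with 20 other genes, that of Pcgf5 with 44 and that of Yaf2 with 79. By summed absolute difference in promoter width over the 10 lists, the nearest to Bmi1 were Hpse2 (3242 bp), Lrfn5 (3345 bp) and Qrfpr (3590 bp). The nearest to Pcgf5 were Slc34a2 (69 bp), B230216G23Rik (80 bp) and Sorcs1 (141 bp), and those to Yaf2 were Rragd (320 bp), Bcl2 (324 bp) and Gm2500 (427 bp). Pcgf1 shared its pattern with 254 other genes, of which 4930412F15Rik, Sh3kbp1 and Tmem8b differed by 1 bp each. Pcgf2 and Ring1 had Flag-PCGF5 in NPC alone, like 1933 other genes. Nearest to Pcgf2 were Ccm2 (2 bp), Tef (15 bp) and H2-Oa (17 bp). Nearest to Ring1 were H2-Ke6 (0 bp), which shares its peak, Brd2 (162 bp) and Gpsm3 (321 bp), all 3 on chromosome 17 as Ring1 is.

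The other Polycomb genes, 49 in 4 lists, give the setting. Of these, 17 had a promoter peak in at least 1 histone list, against 24.6% of all protein-coding genes. The counts by list rest on few genes and were not tested. Canonical PRC1 subunits were the most marked, with 6 of 12. Cbx8, which encodes a chromodomain subunit of canonical PRC1, had both marks in all 8 histone lists (H2AK119ub1 792 to 3272 bp, H3K27me3 972 to 4481 bp). Sfmbt2 had H3K27me3 in NPC alone (3781 bp in wild type, 2773 bp in depleted) together with Flag-PCGF5 (1939 bp) and H2AK119ub1 in wild type NPC (178 bp). Phc2 (573, 841 and 402 bp) and Sfmbt1 (293, 198 and 748 bp) likewise had H3K27me3 in wild type and depleted NPC together with Flag-PCGF5. Of 21 noncanonical partners, 8 had a histone peak, the widest being Auts2, a PCGF5 partner in neurons (H3K27me3 909 bp in wild type ES, 462 bp in depleted ES, 303 bp in wild type NPC and 1128 bp in depleted NPC), Bcor, Kdm2b and Fbrsl1. Of 11 PRC2 genes 2 had one: Phf19 had H3K27me3 in depleted ES (1554 bp) and wild type NPC (1926 bp), and Aebp2 had H2AK119ub1 in depleted NPC (348 bp). Of 5 genes of the H2AK119 deubiquitinases 1 had one, Asxl3, with H3K27me3 in all lists but wild type ES (467 to 1481 bp) and H2AK119ub1 in both NPC lists (145 bp in wild type, 265 bp in depleted), a presence that differs from that of Bmi1 in 1 list. Flag-PCGF5 of NPC was at 12 of the 49 promoters, against 13.7% of all genes. Among them were Hdac1 (1003 bp), Dcaf7 (1205 bp), Eed (957 bp) and Phf1 (2519 bp). In ES it was at 2, Scmh1 (253 bp) and Aebp2 (458 bp), against 0.787% of all genes.

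**Figure D5:**
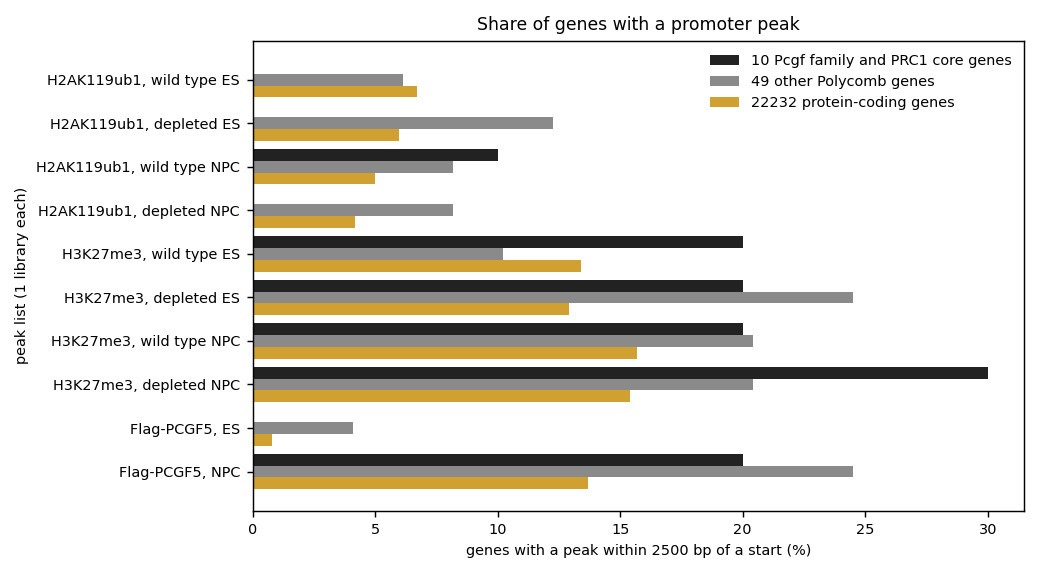
Percent of genes with a peak centred within 2500 bp of a start, in each peak list of 1 library, for the 10 Pcgf family and PRC1 core genes, 49 other Polycomb genes and all 22232 protein-coding genes. With 10 genes each member is a step of 10 percentage points, with 1 to 3 members marked in 6 of the 10 lists and 0 in the other 4.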

How the data were processed

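ChIP-seq peak lists of 10 libraries were analysed, 1 per group, with groups taken from the labels. For histone marks, the study's methods give micrococcal nuclease digestion followed by light fixation, and for Flag, EGS plus formaldehyde and then sonication. Reads were trimmed (Trimmomatic), aligned to mm9 (Bowtie2), stripped of duplicates (Picard) and passed to MACS2 2.1.0 by the authors, library by library. A spike-in that the authors used for signal densities does not enter the lists.

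Each peak in the deposited lists has 4 values from MACS2: a fold enrichment (a ratio over local background), the p-value and the q-value, both as −log10, and a score. In the deposited files this score equals the −log10 p-value (histone) or −log10 q-value (Flag) multiplied by 10. Lists were called separately, so their length moves with depth and background, and fold and p-values were used only to describe or rank peaks within a list. No file gave read totals, so depth is unknown.

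Peaks were assigned with Python 3 scripts (pandas) to GENCODE M1 genes on NCBIM37, the assembly behind mm9, and the assignment was tested on simulated peaks. Percentiles are ranks within a list. The members and gene lists were chosen with earlier results of these data known. All 10 members are named, and of each other list up to 4 genes with the widest histone peaks at the promoter. Further genes of those lists, the site beyond Bmi1 and the 3′ end of Pcgf5 were named after their values were seen. Genes like a member are the 3 of the same presence pattern with the least difference in width. Alternatives were another overlap rule, windows of 1000 and 5000 bp, the outermost start alone, a q-value under 0.05, the higher-scoring 50% of each list, merging within 1000 bp, and equal numbers of peaks. No test was made, since each group was 1 library. No protein sequences were compared. The values of 1 gene of the other lists that the rule names are not reported here.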

Additional observations from a re-analysis of the deposited data

Results flagged for a closer look

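For 4 measures the value in depleted minus that in wild type cells had opposite signs in ES and NPC. Each group was 1 library, so this difference was not tested. The summed width of H3K27me3 over the body of Bmi1 was 363 bp wider in depleted than in wild type ES, and the change in NPC was -46 bp (2260 against 2306 bp). At the Bmi1 promoter, which also takes in peaks upstream of the body, the width was larger in depleted cells in both stages. It was 363 against 0 bp in ES and 2997 against 2730 bp in NPC. H3K27me3 was at the promoters of 4 more noncanonical PRC1 partners in depleted than in wild type ES, and the change in NPC was -1. For PRC2 genes with H3K27me3 the changes were 1 gene in ES and -1 in NPC, and for canonical PRC1 genes with H2AK119ub1 they were likewise 1 and -1.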

How the results depend on the processing

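In the 6 lists where a member had a peak, the count of members stayed within 1.5 times its value in 38 of 48 comparisons with an alternative at promoters and in 15 of 24 over bodies. The 4 lists with no member stayed at 0 under each alternative. Bmi1 was the single member with H2AK119ub1 at its promoter, in wild type NPC, under each of the 8 alternatives, and no member had it in the other 3 lists. With a window of 1000 bp, 1 member had H3K27me3 in wild type ES, 1 in depleted ES and 1 in depleted NPC, and 1 had Flag-PCGF5 in NPC. In the higher-scoring 50%, H3K27me3 was at 1 promoter in wild type ES and 0 in depleted ES, and Flag-PCGF5 in NPC at 1. With the outermost start alone, 1 member (Bmi1) had H3K27me3 in wild type NPC, since both Pcgf5 peaks lie at its inner start. Flag-PCGF5 in NPC was at 1 member after merging, and at 0 in the 653 highest-scoring peaks, the number of the shortest Flag list. The log2 ratio of summed H3K27me3 width in NPC turned to -0.42 with a window of 1000 bp and was 0.89 in the higher-scoring 50%. In ES no ratio could be formed in the higher-scoring 50%, where the depleted sum was 0 bp against 227 bp in wild type, the opposite direction.

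Over bodies without the promoter windows, H2AK119ub1 in wild type NPC was at 1 member (Pcgf5), H3K27me3 in wild type ES at 0, in depleted ES at 0, in wild type NPC at 1 and in depleted NPC at 0, and Flag-PCGF5 in NPC at 0. In the higher-scoring 50%, H3K27me3 over bodies was at 0 members in both ES lists. With any base of a peak in the body, Flag-PCGF5 in NPC was at 2. The causes were not tested beyond the fewer peaks or shorter windows of these settings. The labels give no shared replicate numbers, and no paired analysis was possible because each group was 1 library. Depth, which is unknown here, limits what a missing peak can show.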
